A study of Mus musculus with 76 samples.

Results

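The Ly6 genes are a cluster of neighbouring mouse genes for small proteins of the cell surface, and 6 of them were examined across mouse tumors with and without added catalase: Ly6a, Ly6c1, Ly6c2, Ly6e, Ly6g and Ly6i. They were taken by symbol from the 55536 genes of the count table, and all 6 were found. The members were chosen by measured values of these tumors: Ly6c1 in CT26 tumors given extracellular catalase, and Ly6c2 and Ly6i in 4T1 tumors with intracellular catalase. In those 2 comparisons the values of all members are therefore given as a description with no test. The same holds for Ly6c2 and Ly6i in the other comparisons that reuse the 4T1-CAT tumors with alum or the 4T1-control tumors, since the values of these tumors entered the choice. It holds too for Ly6c1 wherever CT26 tumors are compared with 4T1 tumors, and for all members where the effect in CT26 is part of an interaction. In the other comparisons the members are reported with adjusted p-values over all genes tested, which are not independent of the choice of members.

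RNA was collected from 38 whole tumors grown under the skin of BALB/c mice, and each tumor was sequenced in 2 technical libraries. CT26 (a colon carcinoma line) and 4T1 (a mammary carcinoma line) tumors were injected on day 6 with 20 μg of CAT-ABP, a catalase carrying an alum-binding peptide, mixed with 100 μg of alum, or with alum alone; tumors were taken on day 8. These days are those of the sample labels, and the study's account of the sequenced tumors names later ones. This extracellular catalase arm held 6 CT26 tumors with CAT-ABP + alum, 5 CT26 tumors with alum, 6 4T1 tumors with CAT-ABP + alum and 5 4T1 tumors with alum. For intracellular catalase, 4T1-CAT cells carried human catalase and GFP, and 4T1-control cells GFP alone, under a doxycycline-inducible promoter, with doxycycline in the diet from day 4. There were 5 4T1-CAT tumors with alum, 5 4T1-CAT tumors with CAT-ABP + alum and 6 4T1-control tumors with alum. Every tumor received alum, so none was untreated. The engineered lines were made with a lentiviral vector, and the mice bearing parental 4T1 or CT26 tumors received no doxycycline.

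Ly6 proteins share a compact fold held by disulfide bonds, with 3 loops, and most are tied to the outer membrane by a lipid anchor. Ly6a (Sca-1) marks blood stem cells, many endothelial cells and activated T cells, and interferons raise it. Ly6c1 and Ly6c2 together encode the Ly6C antigen, with Ly6c2 high on inflammatory monocytes and also on memory CD8 T cells, and Ly6c1 on endothelial cells. Ly6g marks mouse neutrophils, Ly6e is broadly expressed and raised by interferons, and Ly6i is found on myeloid cells. In bulk RNA, fewer cells of a type and less RNA per cell cannot be told apart.

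All 6 genes lie close together on chromosome 15 (GRCm38): Ly6e at chr15:74955051-74959905 on the plus strand, Ly6i at chr15:74979534-74983430, Ly6a at chr15:74994877-74998031, Ly6c1 at chr15:75044018-75048830 and Ly6c2 at chr15:75108158-75111970 on the minus strand, and Ly6g at chr15:75155240-75159126 on the plus strand. Ly6c1 and Ly6c2 are near-identical copies: 384 of 393 coding bases are the same (97.7%), and 31.7% of the 50-base windows of the Ly6c1 transcript also occur in the Ly6c2 transcript. The last 300 bases of the transcripts, which 3′ tag libraries read, are 93.8% identical. A coding exon of each shows how few bases separate the pair. Both runs below are given 5′ to 3′ on the minus strand of GRCm38, at chr15:75045405-75045610 for Ly6c1 and chr15:75108546-75108751 for Ly6c2, with the 3 differing bases in capitals.

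Ly6c1 coding exon: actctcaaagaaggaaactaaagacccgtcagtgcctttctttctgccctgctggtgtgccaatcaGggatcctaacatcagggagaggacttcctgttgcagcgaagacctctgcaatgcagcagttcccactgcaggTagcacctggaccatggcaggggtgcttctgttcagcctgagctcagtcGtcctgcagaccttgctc

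Ly6c2 coding exon: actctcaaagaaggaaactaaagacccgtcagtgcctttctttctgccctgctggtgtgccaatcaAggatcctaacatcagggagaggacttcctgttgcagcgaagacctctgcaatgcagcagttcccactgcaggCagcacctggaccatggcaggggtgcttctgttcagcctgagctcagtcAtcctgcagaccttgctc

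Reads can therefore be split between Ly6c1 and Ly6c2 by the authors' counting, and the division between them is uncertain. In 97.3% of the libraries with counts, the values of Ly6c1 and of Ly6c2 were not whole numbers within 0.001. The same was true of Ly6a in 89.5% of libraries, Ly6i in 57.7% and Ly6g in 58.3%, and of Ly6e in 0%. Ly6a and Ly6i share 86.3% of their coding bases and 4.03% of 50-base windows. Ly6e is the most distant, with 51.9% to 55.7% identity to the others and no shared window.

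The promoters of 3 members were in the RefSeq sequence table (GRCm38.p6), which had no entry for Ly6a, Ly6e and Ly6i. They are shown for the 2 near-identical genes and Ly6g because the copies are less alike upstream than in the coding exon. Each run is the 250 bases before 1 RefSeq start of the gene, 5′ to 3′, with the TATA-box letters TATAAA in capitals where they occur: Ly6c1 at chr15:75048838-75049087 (minus strand), Ly6c2 at chr15:75111972-75112221 (minus strand) and Ly6g at chr15:75155011-75155260 (plus strand). RefSeq starts differ by some bases from the gene bounds given above, and the end of the Ly6g run lies inside those bounds.

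Ly6c1 promoter: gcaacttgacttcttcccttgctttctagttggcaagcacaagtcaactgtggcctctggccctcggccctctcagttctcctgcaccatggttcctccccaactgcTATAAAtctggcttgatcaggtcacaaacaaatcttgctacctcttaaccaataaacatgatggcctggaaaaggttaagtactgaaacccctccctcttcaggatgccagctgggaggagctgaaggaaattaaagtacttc

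Ly6c2 promoter: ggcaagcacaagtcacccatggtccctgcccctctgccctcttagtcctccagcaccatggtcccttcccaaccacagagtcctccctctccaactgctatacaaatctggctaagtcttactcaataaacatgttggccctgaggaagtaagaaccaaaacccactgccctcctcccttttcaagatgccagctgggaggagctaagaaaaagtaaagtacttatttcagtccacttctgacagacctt

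Ly6g promoter: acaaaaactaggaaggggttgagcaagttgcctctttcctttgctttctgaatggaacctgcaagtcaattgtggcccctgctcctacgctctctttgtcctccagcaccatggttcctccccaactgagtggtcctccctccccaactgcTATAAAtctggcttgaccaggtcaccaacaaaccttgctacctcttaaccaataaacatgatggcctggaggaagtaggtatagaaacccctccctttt

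TATAAA, searched on both strands over 300 bases around the start, was present in Ly6c1 and Ly6g and not in Ly6c2, and 13.6% of all 32851 promoters hold it. A match is a description of these letters only.

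Levels were expressed as CPM, counts scaled to a common library total across all 38 tumors. Tumors held between 493044 and 9077549 counts (median 4827388). The technical libraries of a tumor differed by a median of 1.09-fold for Ly6a, 1.102-fold for Ly6c1, 1.18-fold for Ly6c2, 1.22-fold for Ly6e and 1.22-fold for Ly6i, over tumors with at least 10 counts in both. The 2 technical libraries of a tumor differed in the first part of their tags. By this pair of first parts the tumors fell into 2 sets, called index set A and index set B here. Within a set, technical replicate and first part go together and cannot be told apart. Set B held all CT26 tumors, all 4T1 tumors with CAT-ABP + alum and 2 of the 5 4T1 tumors with alum; set A held the other 3 and all tumors of the engineered lines. A family gene that was high in CT26, Slurp1 (mean 109 CPM in CT26), was listed at 0 in 18 of the 19 4T1-derived tumors of set A, and was above 0 in all 8 4T1 tumors of set B, at 1.09% to 6.62% of its CT26 mean. Over 9 CT26-high genes, Slurp1 among them, chosen after their values were seen by a rule that required a set A mean under 0.5% of the CT26 mean, the set B 4T1 tumors stood at 1.09% to 2.31% of the CT26 mean (median 1.39%) and the set A tumors at 0.0335% to 0.939% (median 0.162%). The low set A values follow from that rule, and the separation of the sets over these genes is a description. Values within one index set are given below where both groups had tumors in it.

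**Figure D1:**
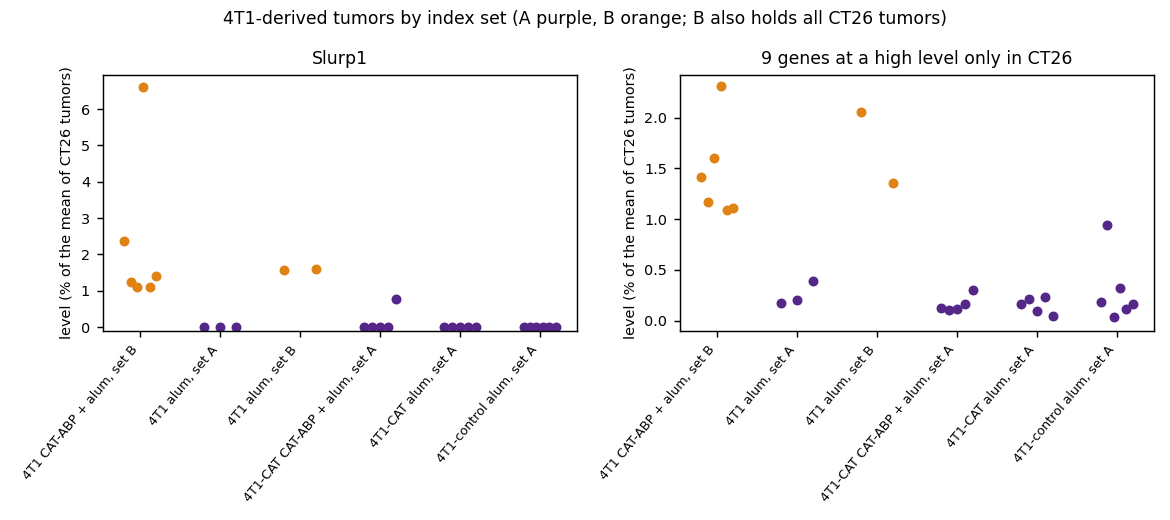
Level of Slurp1 and of 9 CT26-high genes in each 4T1-derived tumor, as a percentage of the CT26 mean, by index set (the pair of first parts of its 2 library tags). Each point is 1 tumor. The 8 tumors of set B stand at 1.09% to 2.31% for the 9 genes, which were chosen for low values in set A.

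Expression of 4 of the 6 members separated the tumor models. Ly6a, the stem cell and endothelial marker, reached 1808, 1935, 1826, 1932 and 1248 CPM in the 5 CT26 tumors with alum, and 203, 173, 174, 153 and 195 CPM in the 5 4T1 tumors with alum. The lowest CT26 tumor was far above the highest 4T1 tumor. The fold was 9.76 (log2 3.29, 95% confidence interval 2.89 to 3.68), with an adjusted p of 2.46e-09 by edgeR's quasi-likelihood test. With CAT-ABP + alum, Ly6a ran from 517 to 1686 CPM in CT26 and from 151 to 265 CPM in 4T1, a 4.86-fold difference (log2 2.28, 1.71 to 2.85, adjusted p = 2.04e-06).

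Ly6c1 followed the same order. In CT26 tumors with alum it stood at 572, 668, 555, 680 and 450 CPM, against 66.1, 56.5, 65.2, 61.4 and 88.3 CPM in 4T1 tumors with alum. All 5 CT26 tumors were above all 5 4T1 tumors, with a fold of 8.67 (log2 3.12). With CAT-ABP + alum the difference was 4.06-fold (log2 2.02). These Ly6c1 values are a description, because the values of the CT26 tumors entered its choice.

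Ly6c2, the monocyte-associated copy, stood at 223, 270, 165, 120 and 80.5 CPM in CT26 tumors with alum and at 18.5, 7.78, 11.7, 12.96 and 16.3 CPM in 4T1 tumors with alum. The CT26 tumors were widely spread, but none reached down to the 4T1 range. The fold was 12.9 (log2 3.68, 3.01 to 4.36, adjusted p = 2.18e-07, edgeR), and with CAT-ABP + alum it was 4.21 (log2 2.08, 1.52 to 2.64, adjusted p = 5.52e-06).

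Ly6e, the interferon-responsive member with the widest expression, varied little among the tumors given alum. CT26 tumors with alum held 1040, 1042, 1121, 1177 and 1232 CPM, and 4T1 tumors with alum held 135, 121, 150, 148 and 148 CPM. The fold was 7.98 (log2 3.00, 2.67 to 3.32, adjusted p = 9.03e-10, edgeR), and with CAT-ABP + alum it was 5.42 (log2 2.44, 2.15 to 2.73, adjusted p = 1.47e-10).

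Ly6i, the myeloid member, was measured from few reads in 4T1. CT26 tumors with alum held 223, 137, 166, 126 and 48 counts, or 44.2, 66.9, 22.7, 37.0 and 11.6 CPM, while the 4T1 tumors with alum held 0, 5, 2, 1 and 0 counts. The fitted log2 difference was 6.61, given as a description because Ly6i passed the filter on low counts through its CT26 values. Its size rested on 8 counts in 4T1: it was 7.70 without 4T1 alum replicate 2, the tumor with 5 counts, and 5.46 within index set B. With CAT-ABP + alum the summed counts were 618 in the 6 CT26 tumors and 24 in the 6 4T1 tumors. There Ly6i did not pass the filter on low counts; without the filter the log2 difference was 4.58. Over all tumors CT26 did not stand apart for Ly6i: CT26 replicate 5 with CAT-ABP + alum held 2.13 CPM and 4T1-CAT replicate 3 with alum held 3.69 CPM.

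Ly6a, Ly6c2 and Ly6e were called higher in CT26 with alum and with CAT-ABP + alum, where 21.3% and 21.8% of all genes tested were called higher. The CT26 and 4T1 values overlapped for none of these members, nor for Ly6c1. In the same comparisons, 29.9% and 22.3% of all genes tested did not overlap. Within index set B, with 5 CT26 tumors against 2 4T1 tumors with alum, the log2 differences were 3.21 for Ly6a, 3.71 for Ly6c2 and 3.12 for Ly6e (adjusted p = 2.19e-05, 0.000521 and 7.59e-06, edgeR). As a description, the value for Ly6c1 was 3.24. The differences were about as large within the set, an alternative chosen after seeing the data. No test compares the tumor models apart from the cell lines themselves: each model is 1 line.

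**Figure D2:**
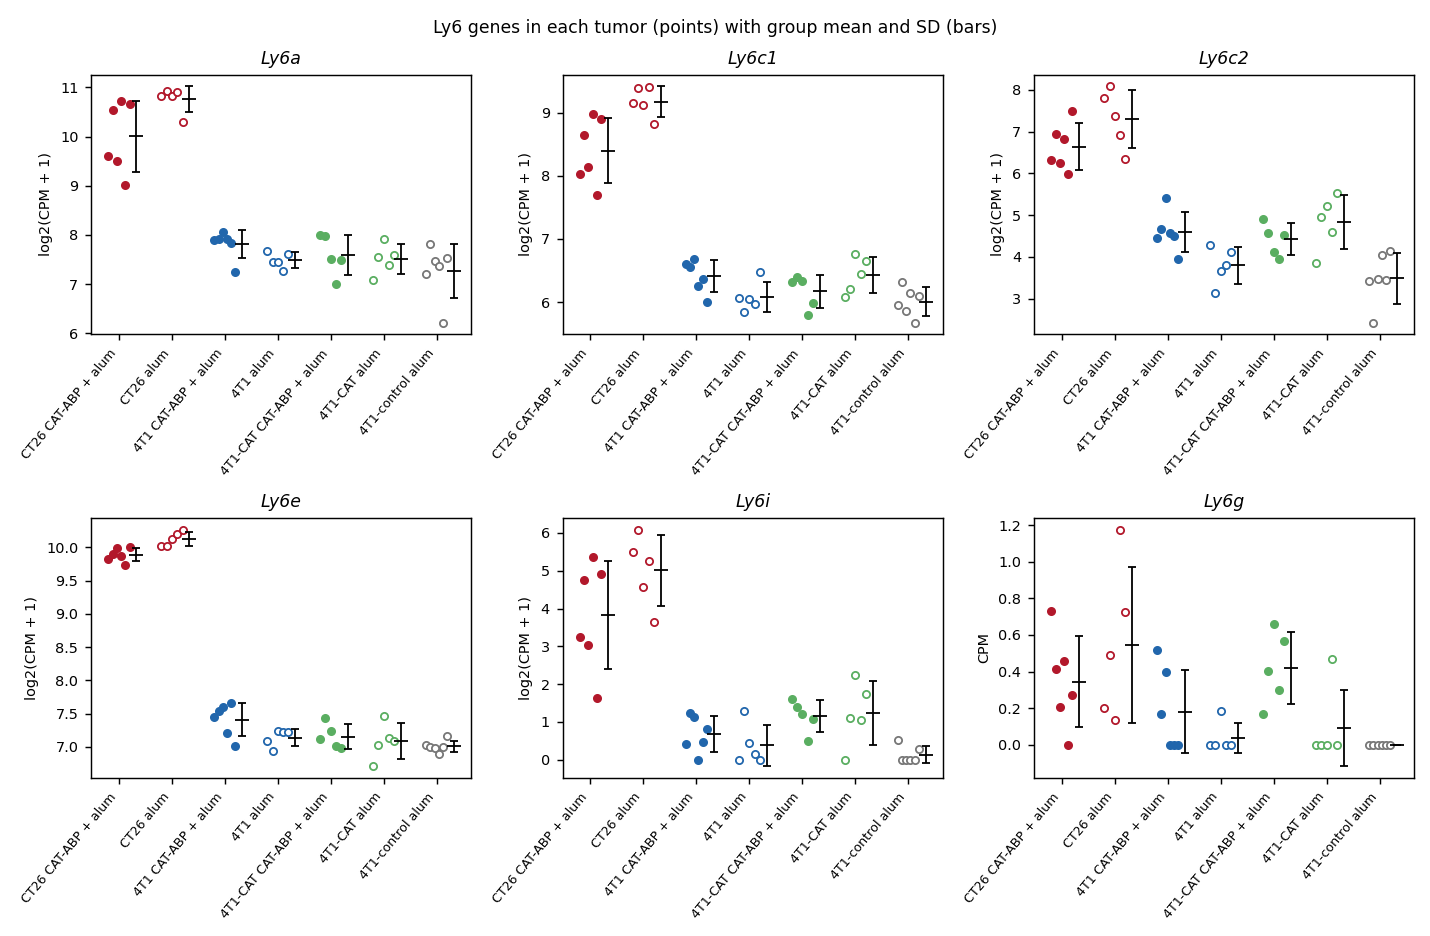
Levels of the 6 Ly6 genes in each of the 38 tumors by group, as log2(CPM + 1), or CPM for Ly6g. Points are tumors, filled for CAT-ABP + alum, and bars give the group mean and SD. For Ly6a, Ly6c1, Ly6c2 and Ly6e every CT26 tumor sits above every 4T1-derived tumor.

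Over all 27 4T1-derived tumors Ly6a ran from 73.5 to 265 CPM and over the 11 CT26 tumors from 517 to 1935 CPM. For Ly6e the ranges were 104 to 201 CPM and 852 to 1232 CPM. For Ly6c1 they were 50.1 to 108 CPM and 208 to 680 CPM, and for Ly6c2 4.39 to 45.4 CPM and 62.4 to 270 CPM. In the order of group means, the CT26 groups came first for these genes, and each neighbouring pair among the 5 4T1-derived groups overlapped. Such overlap is common and does not show that the groups were alike. In the comparisons between 4T1-derived groups, 0.367% to 2.93% of all genes tested did not overlap.

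Ly6g, the neutrophil marker, was close to undetected. All 38 tumors together held 44.4 counts before rounding, 18 tumors were at 0, and no tumor held more than 4 counts. The 6 CT26 tumors with CAT-ABP + alum held 3, 4, 1, 2, 0 and 1 counts, and the 6 4T1-control tumors held 0 in all, which allows a level of up to 0.156 CPM over that group (3 counts of its total; counting error only). The 5 4T1-CAT tumors with CAT-ABP + alum held 13 counts in all, with no tumor at 0, and the 5 CT26 tumors with alum held 10. Ly6g passed the filter in no comparison and was not tested. Other neutrophil genes were measured in the same tumors: the summed level of the 13 neutrophil markers ran from 89.2 to 402 CPM per tumor, led by mean levels of 80.1 CPM for Mmp9, 48.9 CPM for Cxcr2 and 25.1 CPM for Lcn2. The granule genes Ltf, Ngp and Camp of the same list were near 0, at 0.180, 0.0677 and 0.0459 CPM. Of that list 0 to 2 genes per group were at 0 in every tumor. Between the tumor models with alum, Mmp9 and Lcn2 were called lower in CT26 (log2 -3.20 and -1.84). In that comparison 2 other markers of the list were called higher and Cxcr2 was not called. Among all 12817 genes tested, 2727 were called higher in CT26 and 2707 lower. Whether the summed level follows neutrophils was not tested.

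Extracellular catalase in CT26 was asked about by comparing CAT-ABP + alum with alum. As a description, all 5 measured members had lower means with CAT-ABP + alum. Ly6c1 held 262, 399, 282, 503, 208 and 476 CPM (mean 355 ± 122, SD, n = 6) against 572, 668, 555, 680 and 450 CPM (585 ± 93.9, n = 5), a fold of 0.605 (log2 -0.72). Of the 6 tumors with CAT-ABP + alum, replicates 1, 2, 3 and 5 stood below every tumor with alum, and replicates 4 and 6 lay inside the alum range. Replicates 1, 3 and 5 were the lowest. Ly6a was 1135 ± 518 CPM against 1750 ± 286 CPM (fold 0.647) and was lowest in the same 3 tumors, at 777, 726 and 517 CPM. Ly6c2 was 105 ± 43.0 CPM against 172 ± 76.3 CPM (fold 0.609), with overlapping groups.

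Ly6e moved least, with 951 ± 66.5 CPM against 1122 ± 84.1 CPM (fold 0.846, log2 -0.24). It was nevertheless the 1 member whose groups did not overlap: the 6 tumors with CAT-ABP + alum ran from 852 to 1030 CPM and the 5 with alum from 1040 to 1232 CPM. Among all genes tested in this comparison, 0.296% had groups that did not overlap. Ly6i was 18.8 ± 14.99 CPM against 36.5 ± 21.2 CPM (fold 0.523), and replicates 1, 3 and 5 with CAT-ABP + alum were again the lowest, at 8.53, 7.13 and 2.13 CPM. Of the 12830 genes tested, 0% were called (311 had an unadjusted p under 0.05 with edgeR; DESeq2 called 1).

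The median log2 difference of the 5 members in CT26 was -0.71, beside -0.43 for 26 interferon-induced genes, -0.14 for the T cell markers, -0.09 for the monocyte markers, -0.01 for the macrophage markers and -0.00 for all genes tested. For the epithelial tumor cell markers it was -0.12. Medians above 0 were 0.39 for the neutrophil, 0.10 for the fibroblast and 0.03 for the endothelial markers. Genes called in these lists numbered 0. The summed level of the interferon-induced genes ran from 2342 to 6284 CPM with CAT-ABP + alum (median 4699) and from 4639 to 7421 CPM with alum (median 6624). None of the 26 genes was at 0 in either group. Its part in the members' difference was not tested.

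In 4T1 tumors the same question gave values in the other direction, and none passed the test. Ly6a was 228 ± 39.5 CPM with CAT-ABP + alum (n = 6) and 179 ± 20.0 CPM with alum (n = 5), a log2 difference of 0.34 (0.02 to 0.66). For Ly6c1 it was 0.33 (0.01 to 0.65), for Ly6c2 0.86 (0.34 to 1.37) and for Ly6e 0.28 (-0.02 to 0.57), each with an adjusted p of 0.999 by edgeR. Ly6c2 held 20.8, 24.6, 41.4, 22.8, 21.8 and 14.6 CPM with CAT-ABP + alum and 18.5, 7.78, 11.7, 12.96 and 16.3 CPM with alum. A single treated tumor, replicate 6, lay inside the alum range. Of 13092 genes tested 0% were called (377 with an unadjusted p under 0.05; DESeq2 called 0).

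These 4T1 groups differ in index set, since all 6 tumors with CAT-ABP + alum were in set B. Within set B, 6 tumors against 2, the log2 differences were 0.27 for Ly6a, 0.47 for Ly6c1, 0.90 for Ly6c2 and 0.42 for Ly6e (adjusted p = 0.991, edgeR). A share of 1.39% of the CT26 mean, the median of the CT26-high genes in set B, would come to 19.6 CPM for Ly6a, 6.38 CPM for Ly6c1, 1.88 CPM for Ly6c2, 14.3 CPM for Ly6e and 0.373 CPM for Ly6i. Ly6i means were 0.674 CPM in 4T1 with CAT-ABP + alum, 0.721 CPM in the set B tumors with alum and 0.162 CPM in the set A tumors with alum. Whether these levels carry RNA of CT26 libraries was not tested.

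The difference between the extracellular effects in CT26 and in 4T1 was fitted as an interaction. This interaction contains the CT26 effect, so the members' values are a description. The log2 differences were -0.98 for Ly6a, -1.07 for Ly6c1, -1.59 for Ly6c2, -0.53 for Ly6e and -2.01 for Ly6i. Of 14160 genes tested 0% were called (509 with an unadjusted p under 0.05 by edgeR, and DESeq2 called 0).

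**Figure D3:**
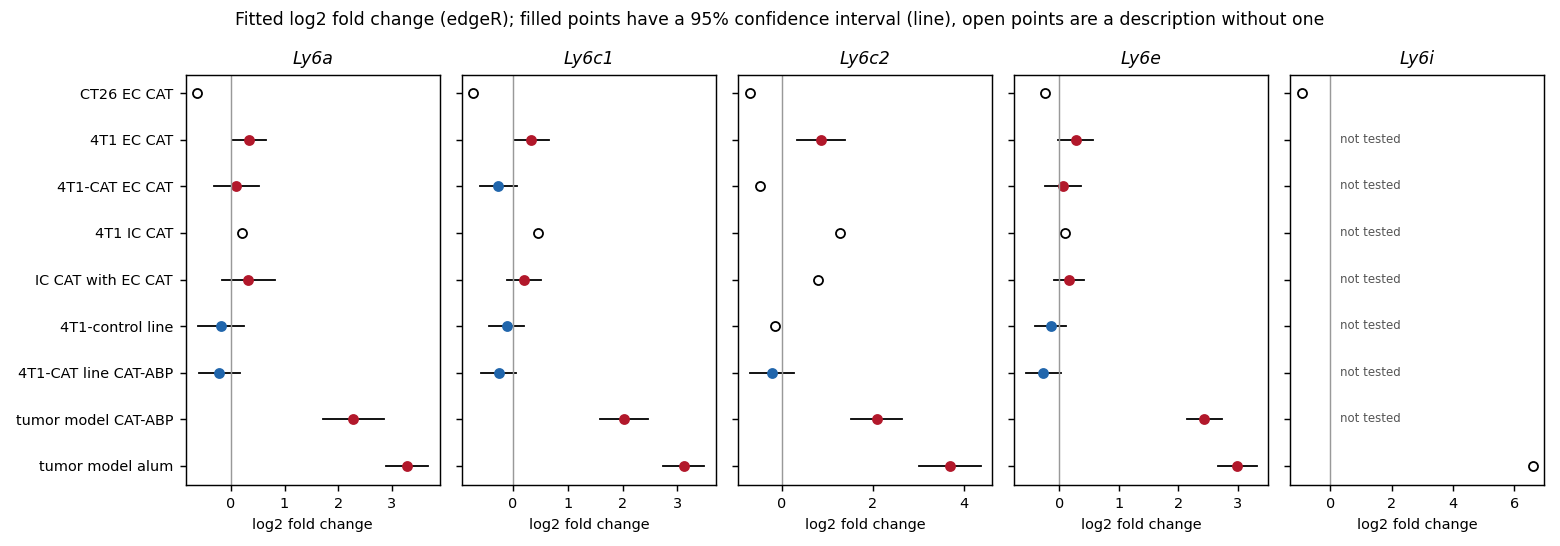
Log2 fold change of each tested member in each comparison, red where above 0 and blue where below. Open points are descriptions with no interval, and filled points carry the 95% confidence interval of the fit. The filled Ly6c1 points of the tumor models are to be read as descriptions too. The row names give extracellular catalase (EC CAT) in each line, intracellular catalase (4T1 IC CAT), both sources against 4T1-control (IC CAT with EC CAT), the tumor models, and the engineered lines against parental 4T1. The tumor model values lie between 2.02 and 6.61, and the other comparisons between -0.94 and 1.27.

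Intracellular catalase was examined in 4T1-CAT against 4T1-control tumors, both with alum and doxycycline. As a description, Ly6c2 held 13.4, 29.9, 36.3, 23.3 and 45.4 CPM in 4T1-CAT (mean 29.6 ± 12.2) and 9.68, 4.39, 10.01, 15.6, 9.86 and 16.7 CPM in 4T1-control (11.04 ± 4.499), a fold of 2.41 (log2 1.27). A single 4T1-CAT tumor, replicate 1, lay inside the control range. The 4.39 CPM of 4T1-control replicate 2 rested on 2 counts. Ly6i held 0, 6, 12, 7 and 6 counts in 4T1-CAT and 1, 0, 0, 0, 0 and 1 in 4T1-control, or 31 counts against 2, and passed no filter. Ly6c1 was 86.6 ± 17.3 CPM against 64.0 ± 10.1 CPM (fold 1.37), Ly6a 184 ± 38.8 CPM against 161 ± 50.02 CPM (fold 1.15) and Ly6e 137 ± 25.8 CPM against 128 ± 7.96 CPM (fold 1.06). Of 12534 genes tested 0% were called (637 with an unadjusted p under 0.05; DESeq2 called 0).

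Markers of other cell types were read beside Ly6c2. The summed T cell markers ran from 88.3 to 204 CPM in 4T1-CAT (median 142) and from 71.9 to 108 CPM in 4T1-control (median 83.6), and the summed monocyte markers from 340 to 591 CPM (median 475) and from 286 to 417 CPM (median 369). The median log2 difference was 0.94 for the 8 T cell markers tested, 0.31 for the 9 monocyte markers, 0.09 for the interferon-induced genes, 0.66 for the neutrophil, 0.40 for the fibroblast, 0.35 for the endothelial and 0.22 for the macrophage markers, with 0 genes called in each. No T cell marker was at 0 throughout either group. Their part in the Ly6c2 value was not tested.

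With both sources of catalase, 4T1-CAT tumors given CAT-ABP + alum were set against the same 4T1-control tumors. The 2 comparisons share these controls. Ly6c2 held 29.0, 23.0, 16.5, 14.5 and 22.1 CPM (mean 21.0 ± 5.75), a log2 difference of 0.80 from the control, given as a description. Ly6a, Ly6c1 and Ly6e differed by 0.32 (-0.16 to 0.81), 0.20 (-0.12 to 0.52) and 0.16 (-0.09 to 0.42) on the log2 scale, with adjusted p = 0.514, 0.541 and 0.534 (edgeR). Ly6i held 12, 8, 6, 4 and 8 counts, 38 in all against 2 in 4T1-control. None of Ly6a, Ly6c1 and Ly6e was called, beside 0.0235% of the 12781 genes tested (3 genes; DESeq2 called 490).

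Adding extracellular to intracellular catalase was measured within the 4T1-CAT line. Log2 differences between CAT-ABP + alum and alum were 0.10 for Ly6a (-0.31 to 0.51, adjusted p = 0.836), -0.27 for Ly6c1 (-0.61 to 0.07, adjusted p = 0.421) and 0.06 for Ly6e (-0.24 to 0.36, adjusted p = 0.869), by edgeR. As a description, the value for Ly6c2 was -0.47. The groups overlapped for all 4 genes, as for most genes: 2.93% of all genes tested did not overlap. Of 13093 genes tested 0% were called by edgeR, while 2000 had an unadjusted p under 0.05 and DESeq2 called 260. The interaction with the parental line gave log2 values of -0.60 for Ly6c1 (-1.06 to -0.14, adjusted p = 0.53), -0.23 for Ly6a (-0.75 to 0.28, adjusted p = 0.806) and -0.21 for Ly6e (-0.61 to 0.19, adjusted p = 0.774), again by edgeR, and, as a description, -1.33 for Ly6c2. There 0% of 13851 genes were called (1218 with an unadjusted p under 0.05; DESeq2 called 0).

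The engineered lines were also compared with parental 4T1. Between 4T1-control and 4T1 tumors with alum, Ly6a differed by -0.18 (-0.61 to 0.25), Ly6c1 by -0.11 (-0.43 to 0.21) and Ly6e by -0.15 (-0.41 to 0.11) on the log2 scale, with adjusted p = 0.847, 0.873 and 0.751 (edgeR). As a description, Ly6c2 differed by -0.16. Within index set A, 6 tumors against 3, the values were -0.10 for Ly6a, -0.16 for Ly6c1, -0.15 for Ly6c2 and -0.19 for Ly6e. The vector, the sorting and the doxycycline diet go together in this comparison and cannot be told apart. Here 0% of 12431 genes were called (1307 with an unadjusted p under 0.05; DESeq2 called 28). Between 4T1-CAT and 4T1 tumors with CAT-ABP + alum the differences were -0.21 (-0.60 to 0.17), -0.26 (-0.58 to 0.05), -0.22 (-0.72 to 0.27) and -0.28 (-0.57 to 0.02), with adjusted p = 0.973, 0.973, 0.977 and 0.973, beside 0.0151% of all genes called. Line and index set cannot be told apart there.

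Because the division between Ly6c1 and Ly6c2 is uncertain, their sum was followed too. Summed levels were 757 ± 149 CPM in CT26 with alum, 460 ± 159 CPM in CT26 with CAT-ABP + alum, 80.9 ± 15.1 CPM in 4T1 with alum, 109 ± 22.0 CPM in 4T1 with CAT-ABP + alum, 116 ± 27.9 CPM in 4T1-CAT with alum, 92.8 ± 16.1 CPM in 4T1-CAT with CAT-ABP + alum and 75.0 ± 10.6 CPM in 4T1-control. The log2 difference of the sum was -0.72 for extracellular catalase in CT26, 0.43 in 4T1, -0.33 in 4T1-CAT, 0.63 for intracellular catalase and 0.32 for both sources against 4T1-control. Between the tumor models it was 3.23 with alum and 2.03 with CAT-ABP + alum. The share of the sum counted to Ly6c2 had medians of 15.5% in 4T1 with alum and 15.7% in 4T1-control, and between 21.0% and 25.2% in the other 5 groups. Over single tumors the share ran from 5.26% to 31.3%. The lowest share was 2 of 38 counts, in 4T1-control replicate 2.

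**Figure D4:**
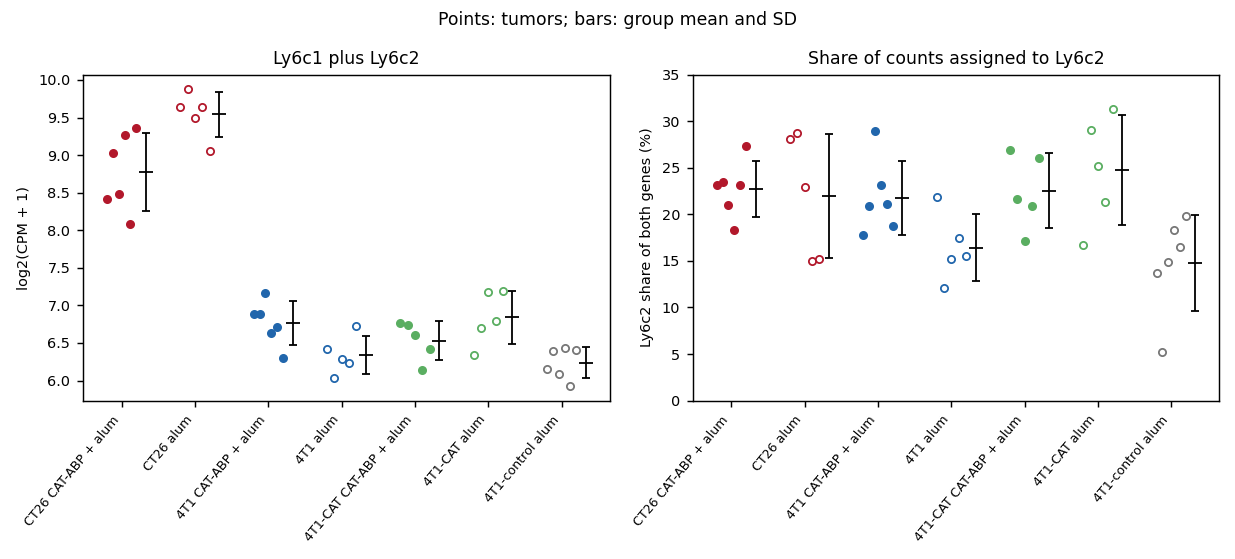
Summed level of Ly6c1 and Ly6c2 in each tumor by group, and the percentage of that sum counted to Ly6c2. The left axis is log2(CPM + 1) and the right a percentage; points are tumors, filled for CAT-ABP + alum, and bars give the mean and SD. The sum separates CT26 from 4T1-derived tumors, and the Ly6c2 share has its lowest medians, 15.5% and 15.7%, in 4T1 with alum and 4T1-control.

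Within groups, the members varied together from tumor to tumor to different degrees. Group means of log2 CPM were subtracted first, and 90 relations were computed, with p-values from 100000 permutations adjusted over all of them. Values were permuted across the groups of a model, whose spread differed. The SD of log2 CPM of Ly6a was 0.72 in CT26 with CAT-ABP + alum and 0.27 with alum. The subtracted means were not allowed for, so the p-values may be too small. Tumors that entered the choice of Ly6c1, Ly6c2 and Ly6i were used, and the marker lists were written with earlier results known. The p-values therefore describe these tumors and are no independent support. In the 11 CT26 tumors, Ly6a and Ly6c1 had r = 0.97 and rho = 0.95 (permutation p = 1e-05, the smallest that can be given, and 9e-05; adjusted 0.00018 and 0.00101), and r = 0.95 without the 2 tumors farthest from the median. Ly6a and Ly6i had r = 0.95 and rho = 0.95 (adjusted permutation p = 0.000257 and 0.000771), with r = 0.89 without 2 tumors. Ly6c1 and Ly6c2 had r = 0.73 and rho = 0.69 (adjusted permutation p = 0.03 and 0.058). Ly6e stood apart from the others, with r between -0.18 and 0.28 to them.

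In the 27 4T1-derived tumors, Ly6a and Ly6c1 had r = 0.76 and rho = 0.73 (adjusted permutation p = 0.00018 and 0.00075), with r = 0.79 in the 19 tumors of index set A and 0.86 in the 8 of set B. Ly6c1 and Ly6e had r = 0.69 and rho = 0.68 (adjusted permutation p = 0.00045 and 0.0013), with 0.62 in set A and 0.83 in set B. Ly6e thus varied with Ly6c1 in these tumors, while the difference between that relation and the one in CT26 was not tested.

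**Figure D5:**
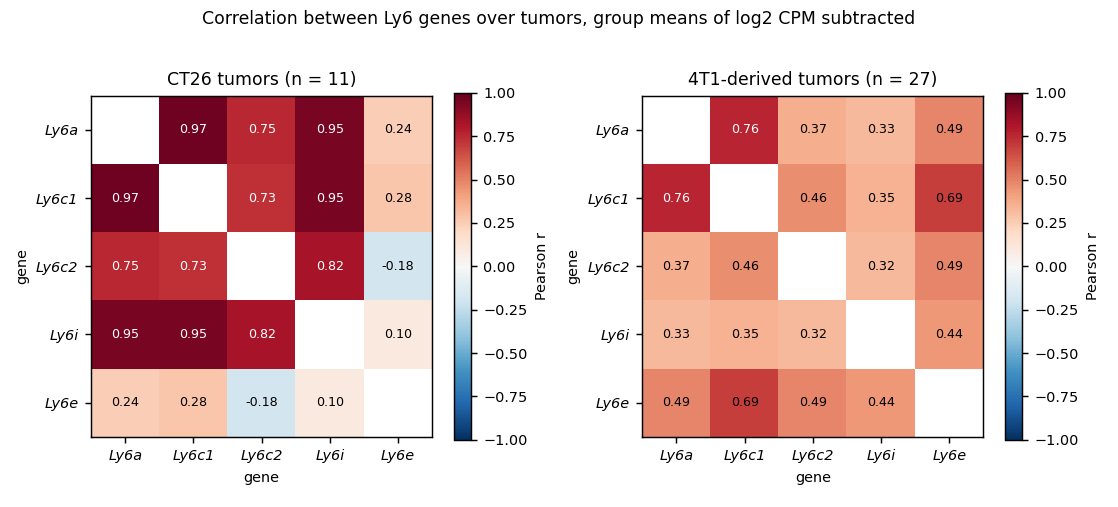
Pearson r between members across tumors after subtraction of group means, for 11 CT26 tumors and 27 4T1-derived tumors. In CT26, Ly6a and Ly6c1 reach 0.97, and Ly6e stays between -0.18 and 0.28 to the others; in 4T1-derived tumors, Ly6c1 and Ly6e reach 0.69.

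The same relations were taken to the mean log2 level of marker lists. In CT26 the interferon-induced genes had r = 0.97 and rho = 0.96 with Ly6a (adjusted permutation p = 0.000337 and 0.00054), r = 0.97 and rho = 0.96 with Ly6c1 (0.00018 and 0.00054, permutation) and r = 0.95 and rho = 0.95 with Ly6i (0.00018 and 0.00054, permutation). With Ly6e the value was r = 0.28 and rho = 0.22 (adjusted permutation p = 0.548 and 0.648). The interferon list was not alone in CT26. With Ly6a, Ly6c1 and Ly6i, T cell markers had r = 0.81, 0.83 and 0.92 (adjusted permutation p = 0.0105, 0.00871 and 0.0004). Monocyte markers had r = 0.78, 0.81 and 0.90 (0.0124, 0.00738 and 0.000623, permutation). Macrophage markers had r = 0.70, 0.70 and 0.86, and neutrophil markers 0.78, 0.77 and 0.73. The endothelial markers had r = 0.04 with Ly6a, 0.02 with Ly6c1 and 0.22 with Ly6i. In 4T1-derived tumors the interferon-induced genes had r = 0.69 and rho = 0.64 with Ly6e (adjusted permutation p = 0.000491 and 0.00328), with 0.75 in set A, 0.61 in set B and 0.58 without 2 tumors. There the values were lower for Ly6a and Ly6c1: r = 0.36 and rho = 0.32 for Ly6a (adjusted permutation p = 0.112 and 0.197), and r = 0.47 and rho = 0.44 for Ly6c1 (0.0299 and 0.0586, permutation). For Ly6i, r was 0.48 and rho 0.39, as a description only. Ly6i passed the filter through its CT26 counts, and 8 tumors, all of them 4T1-derived, held 0 counts of it.

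Ly6c2 varied with T cell markers in both models. In CT26 it had r = 0.92 and rho = 0.90 (adjusted permutation p = 0.000525 and 0.00249), and in 4T1-derived tumors r = 0.79 and rho = 0.74 (0.00018 and 0.00054, permutation), with 0.82 in set A, 0.75 in set B and 0.75 without 2 tumors. With monocyte markers in 4T1-derived tumors it had r = 0.68 and rho = 0.53 (adjusted permutation p = 0.000707 and 0.0173), with 0.75 in set A and 0.60 in set B. The T cell list was not alone: in CT26 Ly6c2 had r = 0.88 and rho = 0.88 with fibroblast markers (adjusted permutation p = 0.00231 and 0.00343), r = 0.84 and rho = 0.80 with macrophage markers (0.00426 and 0.0169, permutation), r = 0.83 and rho = 0.83 with monocyte markers (0.00426 and 0.0143, permutation) and r = 0.81 and rho = 0.79 with interferon-induced genes (0.00904 and 0.0185, permutation). In 4T1-derived tumors it had r = 0.62 and rho = 0.46 with macrophage markers (adjusted permutation p = 0.00376 and 0.0453), with r = 0.38 without 2 tumors. All tumors share whole-tissue RNA, so these relations are across tissue mixtures and not within a cell type.

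The genes whose pattern was most like each member, among 8628 genes at a mean of at least 10 CPM, were ranked by r over the 38 tumors after subtraction of group means, given here as a description. For Ly6a they included Gbp4, an interferon-induced GTPase (r = 0.82), and Hk3, a hexokinase of myeloid cells (0.77). For Ly6c1 they were Lilr4b (0.79), Il1rn, the IL-1 receptor antagonist (0.77), and Zbp1, a nucleic acid sensor (0.77). For Ly6c2 they were Fgl2 (0.82), the complement factor gene Cfb (0.81) and Lbp, the lipopolysaccharide-binding protein (0.79). For Ly6e they were the interferon-induced GTPase gene Tgtp2 (0.77), Rtp4 (0.66) and Ube2l6, the conjugating enzyme for ISG15 (0.65). For Ly6i they were the Fc receptor gene Fcgr4 (0.78), Irf1 (0.75) and Gbp4 (0.75).

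Beside the members, the marker lists also differed between the tumor models. With alum, 25 of 26 interferon-induced genes tested were higher in CT26 (median log2 difference 1.80), as were 9 of 10 T cell markers (2.33) and 5 of 9 monocyte markers (1.08), where the median of all genes tested was 0.02. Of all 12817 genes tested there, 2727 were called higher in CT26 and 2707 lower. Of the endothelial markers 0 of 11 were higher and 3 were lower (-0.43), and Pecam1, an endothelial adhesion gene, differed by 0.10. Of the 8 neutrophil markers 2 were higher and 2 lower (-0.49), of 10 macrophage markers 2 were higher and 1 lower (0.20), and of 10 fibroblast markers 1 was higher and 6 were lower (-0.91). With CAT-ABP + alum the counts were 22 of 24 interferon-induced genes, 9 of 10 T cell markers (Thy1, which the fibroblast list also holds, was lower), 6 of 10 monocyte markers and 0 of 10 endothelial markers higher in CT26. Of all 13016 genes tested there, 2840 were called higher in CT26 and 3088 lower. Among the most abundant monocyte markers, Plac8 was higher in CT26 by 3.81 and Ms4a4c by 1.70 on the log2 scale with alum, and Cd14 had a value of 0.92 that was not called (adjusted p = 0.0634, edgeR). The 8 epithelial markers summed to 40.9 to 83.8 CPM in CT26 tumors with alum and 1954 to 2894 CPM in 4T1 tumors with alum, so the CT26 tumors carried little epithelial marker RNA. The part of these cell types in the members' differences was not tested.

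Of 35 other genes of the Ly6/uPAR family, 6 passed the filter with alum and 7 with CAT-ABP + alum. Higher in CT26 were 3 in each comparison: Slurp1, a secreted family protein (log2 7.89 and 5.80, adjusted p = 1.03e-08 and 5.57e-11, edgeR), Lynx1, which modulates nicotinic receptors (3.13 and 2.55, adjusted p = 9.59e-07 and 2.00e-08, edgeR), and Plaur, the urokinase receptor (0.94 and 0.76, adjusted p = 0.00361 and 0.00279, edgeR). Lypd1 was lower in CT26 (-0.85 and -0.91, adjusted p = 0.0242 and 0.0246, edgeR). Lypd3, outside the rule for named genes and named after its values were seen, was tested with alum only and was called lower in CT26 there (-8.50, adjusted p = 3.32e-07, edgeR). Gpihbp1, the endothelial lipase anchor that neighbours the Ly6 genes, differed by 0.22 and 0.26 (adjusted p = 0.587 and 0.402, edgeR). The family list thus held calls in both directions. Of all genes tested, 21.3% with alum and 21.8% with CAT-ABP + alum were called higher in CT26. Called lower were 2707 of 12817 genes with alum and 3088 of 13016 with CAT-ABP + alum. The members were chosen with earlier results of these data known, so their direction is not set against this list.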

How the data were processed

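Whole-tumor RNA was sequenced by the authors as 3′ tag libraries on a NextSeq system and converted to reads per gene with a Smart-seq2 pipeline on Terra; the aligner and genome build are not given in the sources used here. The estimated counts deposited by the authors are not normalized and not all whole. Technical libraries were added up for each tumor and the sums rounded, giving 493044 to 9077549 counts per tumor, and 7 libraries lay under 0.25 of the median depth. Replicate tumors are taken as separate mice. Gene IDs were matched to symbols with the authors' gene table.

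Genes were filtered with filterByExpr (minimum count 10, minimum total count 15), normalized by TMM and tested with edgeR 4.0.16 in R 4.3.3 by its quasi-likelihood test, 2 groups per model, with Benjamini-Hochberg adjustment over all genes tested at 0.05. Interactions used 4 groups. Log2 CPM used a prior count of 2. Alternatives were DESeq2 1.42.0, other scaling, no filter, 1 model over all groups, a replicate block, single technical libraries and omission of each tumor. Named genes were the 6 members, other family genes called in both tumor model comparisons in the same direction (up to 5 per direction), the 3 genes most like each member, and up to 3 abundant genes per marker list; 1 gene that this rule names is not reported here. Members and lists were chosen with earlier results of these data known. The scripts were tested on simulated data.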

Additional observations from a re-analysis of the deposited data

Results flagged for a closer look

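In groups of 4 to 10 tumors, 41 sets of member values were examined for a tumor far from the others, and 4 were found, where chance gives about 1 in 20. Ly6a in CT26 alum replicate 5 was 1248 CPM, below the other tumors at 1808 to 1935 CPM. Ly6a in 4T1 CAT-ABP + alum replicate 6 was 151 CPM, below the others at 228 to 265 CPM. The other 2 are Ly6g values of few counts: 4T1 alum replicate 3 at 0.183 CPM (1 count) and 4T1-CAT alum replicate 4 at 0.466 CPM (3 counts), each with the other tumors of its group at 0. No difference between groups' effects passed its test.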

How the results depend on the processing

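The members called per comparison were 5 (Ly6i among them, which passed the filter through its CT26 counts) and 4 between the tumor models and 0 elsewhere. Ly6c1, given above as a description, is in the counts of 5 and 4. Of the alternative values, 196 stayed within 1.5 times of these counts and 3 did not, including a range of 5 to 5 and 4 to 4 when each tumor was left out. These 3 are no test of the members, since the values of the 4T1-control tumors entered their choice: the count was 1 without the filter on low counts for intracellular catalase, and 2 without the filter and 1 with DESeq2 for both sources against 4T1-control. For both sources Ly6c2 stood at a log2 difference of 0.81 with DESeq2 and 0.83 without the filter.

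The sign of some values near 0 turned. For Ly6e with intracellular catalase it was -0.0050 with technical replicate 1 alone and -0.0132 without 4T1-CAT alum replicate 3. For Ly6a in 4T1-CAT with extracellular catalase it was -0.0045 without 4T1-CAT CAT-ABP + alum replicate 1, and up to 0.23 without other tumors. For Ly6e there it was -0.0346 with technical replicate 2 alone, -0.01 without 4T1-CAT CAT-ABP + alum replicate 2 and -0.0286 without 4T1-CAT alum replicate 1, and up to 0.16 without other tumors. For 4T1-control against 4T1, Ly6c1 was 0.0045 without 4T1 alum replicate 5 and as low as -0.17 without other tumors, and Ly6c2 was 0.0117 with technical replicate 2 alone. For 4T1-CAT against 4T1 with CAT-ABP + alum, Ly6c2 was 0.0064 without 4T1 CAT-ABP + alum replicate 3 and as low as -0.36 without other tumors. None of these was called, and the cause was not tested.

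Same-numbered tumors did not deviate together (correlations from -0.288 to 0.334), so the replicate block was kept as an alternative; under it the members called were 5 and 4 between the tumor models and 0 elsewhere. Counts over all genes moved more: without the filter 131 genes were called for intracellular catalase, 532 for both sources, 47 for extracellular catalase in 4T1-CAT, 130 for 4T1-control against 4T1 and 16 in 4T1; DESeq2 called 490, 260 and 28 for both sources, 4T1-CAT and 4T1-control. With technical replicate 2 alone, 2849 genes were called between the models with alum and 3559 with CAT-ABP + alum, against 5434 and 5928. Depth limits Ly6g and, in 4T1, Ly6i. Tag libraries 4T1-CAT alum replicates 2 and 3 list the same tag for 1 library each.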
